A study of Mus musculus with 7 samples.

Results

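The genes described here encode the chains of 2 partner families of cell adhesion: integrins, the receptors, and laminins, one of their ligands. They were chosen by symbol alone, as Itga, Itgb, Lama, Lamb or Lamc followed only by a number, together with Itga2b, Itgav, Itgae, Itgal, Itgam, Itgax and Itgad. Of 29955 gene rows, 37 met the rule: 18 integrin alpha, 8 integrin beta, 5 laminin alpha, 3 laminin beta and 3 laminin gamma genes. RNA was sequenced from 7 samples of mouse embryonic fibroblasts of strain C57BL/6, grown in DMEM with 10% fetal calf serum. The p53 ko group (3 samples) lacked p53, the p53Mdm2 ko group (2 samples) lacked p53 and Mdm2, and the p53ko Mdm2 C462A ki group (2 samples, Mdm2 C462A ki below) lacked p53 and carried C462A, a knocked-in substitution in the RING domain of Mdm2. All 7 samples thus lacked p53, and no sample had both genes intact. The labels do not describe the alleles, or say whether replicates came from separate embryos, so the p-values reflect only how far these samples differ, part of which may be technical.

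An integrin is a pair of 1 alpha and 1 beta chain spanning the plasma membrane. The alpha chain largely sets which ligand is bound: some pairs read the RGD motif of fibronectin and vitronectin, some bind collagen, some bind laminin, and some are typical of leukocytes. Laminin is secreted as a trimer of 1 alpha, 1 beta and 1 gamma chain and is a main building block of basement membranes. In fibroblasts, integrins link the matrix through talin and kindlin to the actin cytoskeleton.

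Levels are recovered normalized reads: the deposited log2-like values were turned back into reads scaled for library size. Recovered totals ran from 28468283 to 41453822 reads per library. A gene listed at 0 could have had up to 3 reads, worth 2.65 to 3.86 normalized reads (counting error only). Of 16900 genes averaging 10 normalized reads or more, which were the genes tested, p53 ko replicate 1 was the lowest library for 26.5% and the highest for 28.1%, and Mdm2 C462A ki replicate 2 was the lowest for 21.3% and the highest for 21.2%. All 10 fibroblast markers were read in every library. The collagen gene Col1a2 had 3456 normalized reads in p53 ko replicate 1 against 175050 to 547553 elsewhere. The surface marker gene Thy1 had 99.1 there against 6592 to 37386. Other fibroblast markers did not share this low: Col3a1 (166679) and Vim (155416) were highest in p53 ko replicate 1. Col1a1, Pdgfra, Pdgfrb, Dcn, Twist1 and Prrx1 were neither lowest nor highest in it. Summed endothelial markers ran from 91.8 to 1097, Schwann cell markers from 56.6 to 161 and skeletal muscle markers from 145 to 2393 normalized reads. Each comparison is also given without p53 ko replicate 1 and without both of these libraries.

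Of the 37 members, 34 reached a mean of 10 normalized reads and were tested, and 26 reached 100. The 3 untested members were Itgal, Itgax and Itgb6. Genes are compared with each other below only per kb of exon (GENCODE M21 gene models); elsewhere, levels of a gene are compared between libraries.

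Among the beta chains Itgb1, the common partner of most fibroblast alpha chains, held between 76.2% and 90.8% of the beta chain reads per kb in every library. Itgb1 had 48869, 100390.0 and 113502 normalized reads in p53 ko replicates 1, 2 and 3, 83728 and 107944 in p53Mdm2 ko replicates 1 and 2, and 70210.3 and 58617 in Mdm2 C462A ki replicates 1 and 2. Its lowest value was in p53 ko replicate 1. Both Mdm2 C462A ki libraries lay below both p53Mdm2 ko libraries.

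Itgb5, which pairs with the alpha v chain, was next, with 8.52% to 22.3% of the beta chain reads per kb. It had 9364, 13590.1 and 17727 normalized reads in p53 ko, 15616 and 9001 in p53Mdm2 ko, and 18306 and 7362 in Mdm2 C462A ki. The 2 libraries of each mutant genotype thus differed more from each other than the group means did. Itgb3, the other classical partner of alpha v and the beta chain of the platelet fibrinogen receptor, had 314, 3443 and 2447 in p53 ko, 1760.1 and 803 in p53Mdm2 ko, and 1317 and 662 in Mdm2 C462A ki. All 4 libraries with altered Mdm2 lay between p53 ko replicate 1 and the other p53 ko libraries. Itgb4, the laminin receptor chain of hemidesmosomes, stayed between 73.4 and 165 normalized reads, and Itgb8, an alpha v partner, between 82.4 and 145.

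The RGD-binding alpha chains were the most abundant. Itga5, the alpha chain of the main fibronectin receptor, had 16636, 21417 and 20149 normalized reads in p53 ko, 13621 and 21558 in p53Mdm2 ko, and 9192 and 8164 in Mdm2 C462A ki. The Mdm2 C462A ki libraries were the lowest 2 of all 7, and the other 2 groups overlapped. Itgav, the alpha v chain that binds vitronectin and latent TGF-beta, had 6355, 22717 and 18372 in p53 ko, 14149 and 20734 in p53Mdm2 ko, and 13202 and 10197 in Mdm2 C462A ki. Itgav was thus lowest in p53 ko replicate 1, and without that library both Mdm2 C462A ki values lay below all others. Itga8, an alpha chain of mesenchyme and smooth muscle that binds nephronectin, had 173, 2402 and 9279 in p53 ko, 2446 and 1857 in p53Mdm2 ko, and 4734 and 805 in Mdm2 C462A ki. It covered a 53.7-fold range, with both ends in the p53 ko group. Itga2b, the platelet alpha chain, had 133 to 347 normalized reads. Platelet and megakaryocyte markers were sparse: 4 of 7 reached a mean of 10, their summed level ran from 502 to 819 in p53 ko, 339.9 to 566 in p53Mdm2 ko and 283 to 450.1 in Mdm2 C462A ki, most of it Gp1bb, and Gp9 had no reads in any library. Their part in the Itga2b level was not tested.

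Of the collagen-binding alpha chains, Itga11, a fibroblast receptor for fibrillar collagen, was the highest per kb. It had 1382, 4209 and 11554 normalized reads in p53 ko, 3408 and 2128 in p53Mdm2 ko, and 2640.2 and 2893 in Mdm2 C462A ki. All 4 libraries with altered Mdm2 fell between the lowest and middle p53 ko values. Itga1, a receptor for collagen IV, had 911, 899 and 2229 in p53 ko, 904 and 726 in p53Mdm2 ko, and 416 and 1085 in Mdm2 C462A ki. One library of each kind set its extremes, p53 ko replicate 3 at the top and Mdm2 C462A ki replicate 1 at the bottom. Itga10, a chondrocyte collagen receptor, had 101 to 372 normalized reads. Itga2, the collagen receptor chain of platelets and epithelia, had 4.54 in p53 ko replicate 1 and 21.2 to 122 in the other libraries.

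Laminin-binding alpha chains did not vary in parallel. Itga3, which binds the laminins that contain the alpha 5 or alpha 3 chain, had 7932, 1795 and 1798 normalized reads in p53 ko, 4068 and 5543 in p53Mdm2 ko, and 1837 and 10105 in Mdm2 C462A ki. It was high in p53 ko replicate 1 and Mdm2 C462A ki replicate 2, intermediate in p53Mdm2 ko, and between 1795 and 1837 in the other 3 libraries. Itga6, a broad laminin receptor, had 1287, 2951 and 2115 in p53 ko, 1752 and 2534 in p53Mdm2 ko, and 1354 and 1451 in Mdm2 C462A ki. Itga7, the laminin receptor chain of muscle, had 733, 3106 and 3283 in p53 ko, 1924 and 1321 in p53Mdm2 ko, and 1156 and 587 in Mdm2 C462A ki. For Itga7 the libraries that were high in Itga3 were the lowest 2, and p53 ko replicates 2 and 3 lay above all others.

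Itga4, which binds fibronectin and Vcam1, had 133, 2621 and 2907 normalized reads in p53 ko, 845 and 1034 in p53Mdm2 ko, and 1199.8 and 197 in Mdm2 C462A ki. Its pattern ran opposite to that of Itga3, with the lowest 2 values in p53 ko replicate 1 and Mdm2 C462A ki replicate 2. Itga9, a related chain that binds tenascin, had 25.4 in p53 ko replicate 1 and 161 to 606 in the other libraries.

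Leukocyte-type chains were low. Itgam, the alpha M chain of myeloid cells, was the highest of them and varied little, from 204 to 319 normalized reads. Itgb2, the beta chain that alpha L, M, X and D all need, had 11.8, 19.5 and 97.1 in p53 ko, 69.6 and 38.6 in p53Mdm2 ko, and 100.2 and 85.6 in Mdm2 C462A ki. Itgad, the alpha D chain, had 224 normalized reads in p53 ko replicate 1 and 0 to 4.64 in the other 6 libraries, 2 of which had none. Itgal had 44.2 in p53 ko replicate 3 and 0 to 3.71 elsewhere, Itgax 0.882 to 17.3, and Itgb6, an epithelial chain, 0 to 18.0. Itgae, the E-cadherin receptor chain, had 3.53 to 31.3 and Itgb7, its partner and that of Itga4, had 18.2, 54.8 and 38.8 in p53 ko, 185 and 116 in p53Mdm2 ko, and 163 and 58.2 in Mdm2 C462A ki. Of 8 leukocyte markers 7 reached a mean of 10 and none was at 0 in all libraries. Ptprc, which marks nearly all leukocytes, was at 0 in p53 ko replicate 1, as were Cd53, Laptm5, Aif1, Emr1 and Tyrobp. Of these, only Ptprc and Cd53 were at 0 in that library alone. Laptm5, Emr1 and Tyrobp were also at 0 in p53Mdm2 ko replicate 2 and Mdm2 C462A ki replicate 2. Aif1 was also at 0 in p53 ko replicate 2, p53Mdm2 ko replicate 2 and Mdm2 C462A ki replicate 1. The summed level of the 8 was 144 to 937 in p53 ko, 99.1 to 393 in p53Mdm2 ko and 53.8 to 294 in Mdm2 C462A ki. Csf1r gave 138 of the 144, in p53 ko replicate 1. The sum was highest in p53 ko replicate 3, where Itgal and Itgax were also highest. Itgb2 was 97.1 there but also 85.6 in Mdm2 C462A ki replicate 2, where the sum was lowest. The part of other cell types in these values was not tested, and in bulk RNA a different number of such cells and a different RNA content per cell cannot be told apart.

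**Figure D1:**
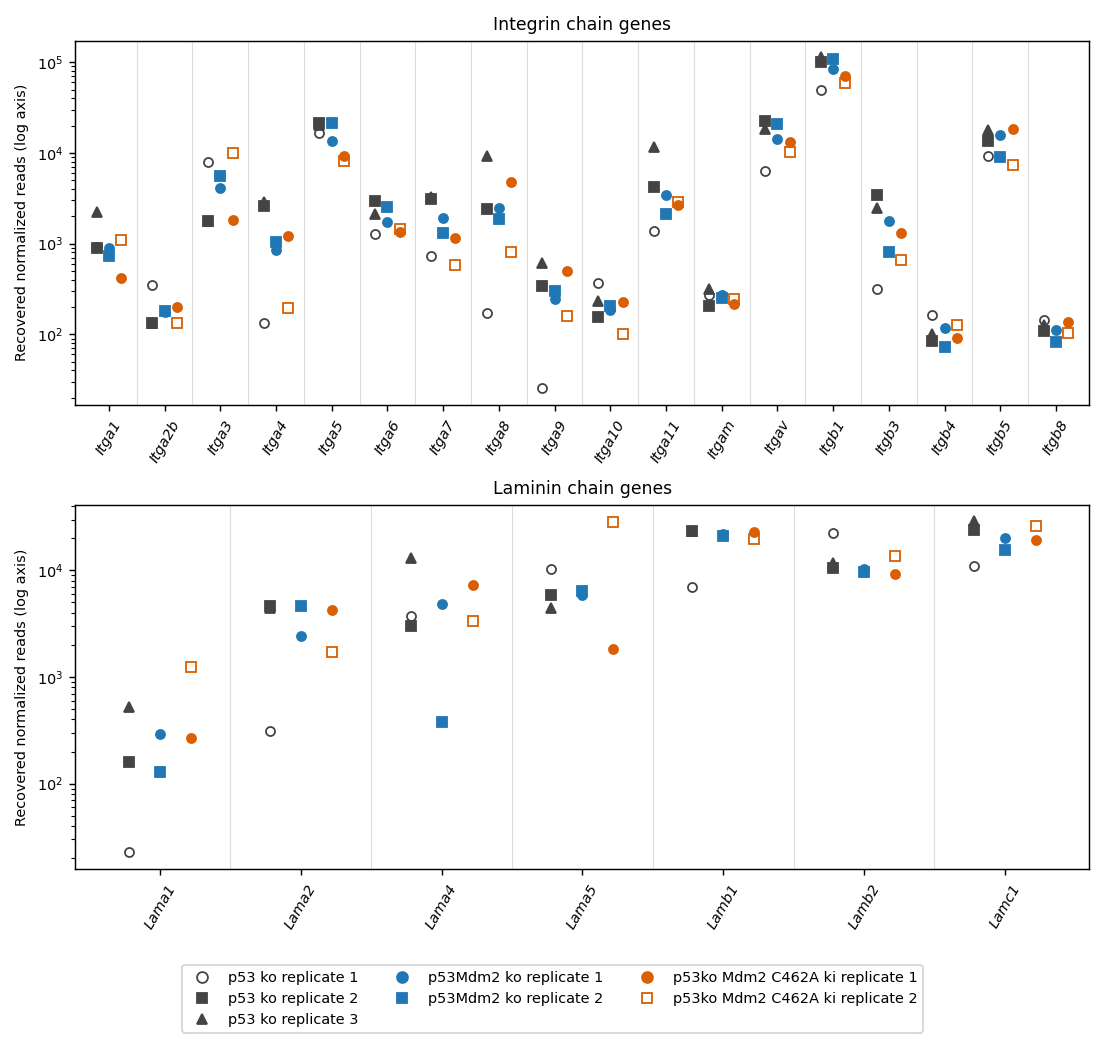
Recovered normalized reads (vertical log axis) of 18 integrin and 7 laminin genes with a mean of at least 100; each point is 1 library, colored by genotype and offset by group, and open symbols mark p53 ko replicate 1 and Mdm2 C462A ki replicate 2. For Itga4, Itga7 and Itga8 the open symbols lie at the bottom, and for Itga3 and Lama5 they are the highest 2 points.

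Of the laminin ligand chains, the gamma 1 gene Lamc1, part of nearly every laminin trimer, held 95.3% to 98.5% of the gamma chain reads per kb. Lamc1 had 10943, 23873 and 28832 normalized reads in p53 ko, 20304 and 15589 in p53Mdm2 ko, and 19423 and 25998 in Mdm2 C462A ki. Lamc1 was lowest in p53 ko replicate 1, and both groups with altered Mdm2 lay within the p53 ko range. Lamc3 stayed between 4.01 and 65.4.

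The order of the beta chains differed in a single library. Lamb1, the beta chain of most embryonic laminins, had 6999, 23318 and 23289 normalized reads in p53 ko, 22055 and 21016 in p53Mdm2 ko, and 22850.5 and 19492 in Mdm2 C462A ki. Lamb2, the beta chain of mature and synaptic laminins, had 22490.0, 10602 and 11652 in p53 ko, 10268 and 9593 in p53Mdm2 ko, and 9328 and 13754 in Mdm2 C462A ki. Lamb2 made up 76.9% of beta chain reads per kb in p53 ko replicate 1 and 29.8% to 42.3% in the other 6 libraries. A separate row, Lamb1-1, is an older symbol of Lamb1 and took 899 normalized reads in p53 ko replicate 1 and 2467 to 4174 elsewhere, so the reads of this gene are split between 2 rows. Lamb3, the beta chain of an epithelial laminin, had 4.01 to 25.8.

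The alpha chains carry the receptor-binding domains of laminin, and each of the 5 varied widely between libraries. Lama5, the broadly expressed alpha 5 chain of mature basement membranes, had 10346, 5829 and 4471 normalized reads in p53 ko, 5885 and 6359 in p53Mdm2 ko, and 1831 and 28132 in Mdm2 C462A ki. The 2 Mdm2 C462A ki libraries were the lowest and the highest of all 7, 15.4-fold apart. Lama4, the alpha 4 chain of mesenchyme and vessels, had 3719, 3026 and 13021 in p53 ko, 4834 and 382 in p53Mdm2 ko, and 7234 and 3344 in Mdm2 C462A ki. Its lowest value, in p53Mdm2 ko replicate 2, stood 34.1-fold below the highest. Lama2, the alpha chain of the main muscle laminin, had 309.9, 4605 and 4460.0 in p53 ko, 2438 and 4640.2 in p53Mdm2 ko, and 4211 and 1734 in Mdm2 C462A ki. Lama1, of the first laminin of the embryo, had 22.7, 161 and 526 in p53 ko, 295 and 127 in p53Mdm2 ko, and 266 and 1237 in Mdm2 C462A ki. Lama1 and Lama2 were both lowest in p53 ko replicate 1. In Mdm2 C462A ki replicate 2 Lama1 was highest and Lama2 second lowest. Lama3, the alpha chain of the same trimer as Lamb3, was scarce: 215, 52.0 and 143 in p53 ko, 10.2 and 7.73 in p53Mdm2 ko, and 17.0 and 15.0 in Mdm2 C462A ki. All 4 libraries with altered Mdm2 lay below all 3 p53 ko libraries.

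Which laminin alpha chain led therefore differed between libraries of the same genotype. Per kb, Lama5 held 57.6%, 34.0% and 12.8% of laminin alpha reads in p53 ko, 32.4% and 50.4% in p53Mdm2 ko, and 8.86% and 74.2% in Mdm2 C462A ki. Lama4 held 39.0%, 33.3% and 70.2%, then 50.1% and 5.70%, then 65.9% and 16.6% in the same order. Among integrin alpha chains the laminin-binding class (Itga3, Itga6, Itga7) held 26.9%, 15.1% and 12.0% in p53 ko, 19.9% and 17.9% in p53Mdm2 ko, and 14.1% and 35.9% in Mdm2 C462A ki. The RGD-binding class held 52.2% to 75.3% and the collagen-binding class 4.99% to 19.1%. In p53 ko replicate 1 and Mdm2 C462A ki replicate 2, Lama5 and the laminin-binding class as a sum thus held their largest shares. Within the class only Itga3 was raised there, with 20.5% and 28.8% of integrin alpha reads per kb. Itga7 held its smallest shares in these libraries (2.4% and 2.1%), and the Itga6 share was neither highest nor lowest in them.

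**Figure D2:**
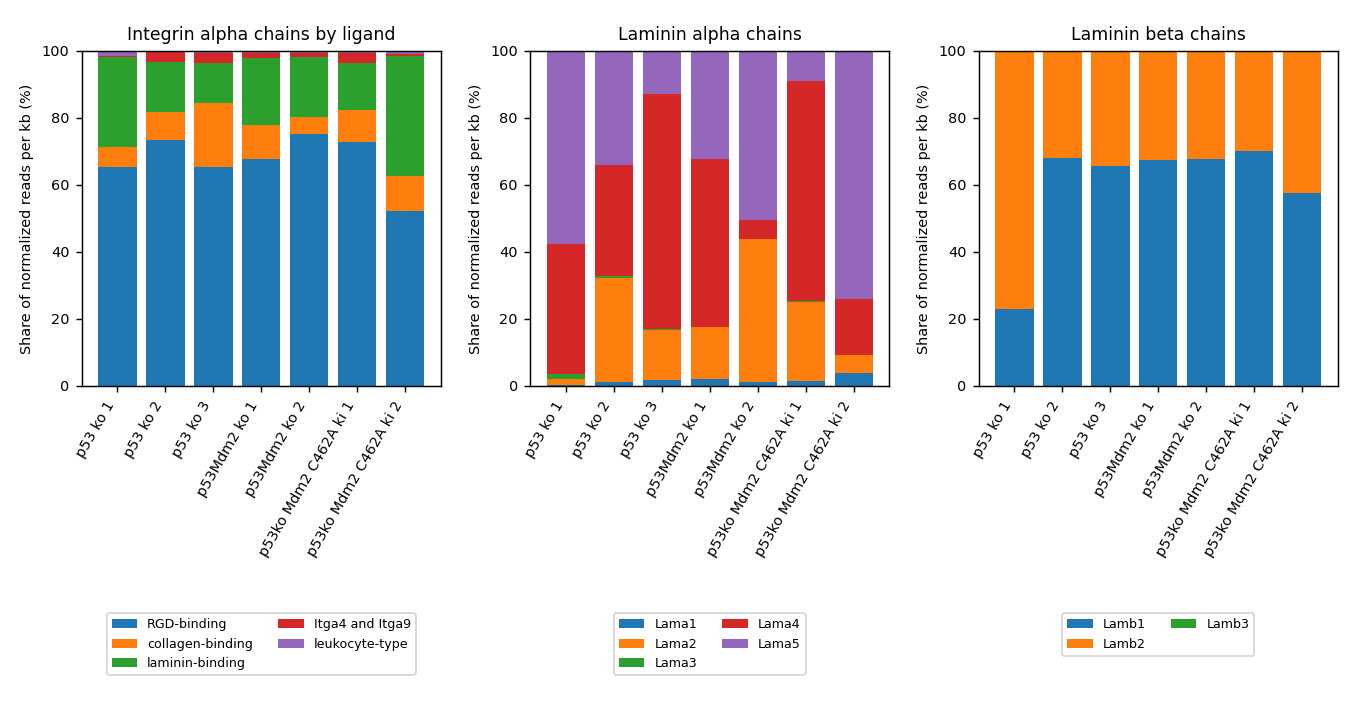
Stacked bars give, for each of the 7 libraries on the horizontal axis, the share (%) of normalized reads per kb that each ligand class of integrin alpha chain (left), each laminin alpha gene (middle) and each laminin beta gene (right) held. Lama5 covers 74.2% of the laminin alpha bar in Mdm2 C462A ki replicate 2 and 8.86% in replicate 1, and Lamb2 covers 76.9% of the beta bar in p53 ko replicate 1.

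Markers of mesothelium, an epithelium that lines body cavities and rests on a laminin-rich basement membrane, also differed between libraries. All 5 listed markers (Msln, Upk3b, Wt1, Krt19, Lrrn4) reached a mean of 10 and none was at 0 in all libraries. Their summed level was 10518, 2177 and 2611 normalized reads in p53 ko, 13974 and 3414 in p53Mdm2 ko, and 2725 and 33193 in Mdm2 C462A ki. It was highest in Mdm2 C462A ki replicate 2, as were Itga3 and Lama5. The second highest, p53Mdm2 ko replicate 1, had intermediate Itga3 and Lama5 levels. In Mdm2 C462A ki replicate 2 Upk3b gave 21602 of the 33193, and Msln, Wt1 and Lrrn4 were also highest. Krt19 was highest in p53Mdm2 ko replicate 2 (1911), where Upk3b, Wt1 and Lrrn4 were lowest (36.1, 7.73 and 5.15). In p53 ko replicate 1 Krt19 was 204. Epithelial markers (8, of which 4 reached a mean of 10) summed to 99.1 to 1271. The part of either in the member values was not tested.

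Promoter sequences are shown for Itga5, the integrin gene with the lowest p in both comparisons with Mdm2 C462A ki, for Itga3 and Lama5, which were highest in the same 2 libraries, and for Itga4, which was lowest there. They come from RefSeq (GRCm38.p6; the submitters name mm9 for the reads, and no coordinate was converted), cover 250 bases before to 50 after the gene start, and run 5′ to 3′ on the gene's strand. Capitals mark matches to GGGCGG, the GC box, on either strand. For Itga3, with 2 starts in the table, the upstream one is shown.
Itga5 (chr15:103366742-103367041, minus strand): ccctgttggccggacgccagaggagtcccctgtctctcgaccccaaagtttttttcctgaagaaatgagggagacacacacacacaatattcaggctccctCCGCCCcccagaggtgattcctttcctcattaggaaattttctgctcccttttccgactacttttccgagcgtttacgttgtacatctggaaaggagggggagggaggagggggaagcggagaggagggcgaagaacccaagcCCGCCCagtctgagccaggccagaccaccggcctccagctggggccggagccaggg
Itga4 (chr2:79255176-79255475, plus strand): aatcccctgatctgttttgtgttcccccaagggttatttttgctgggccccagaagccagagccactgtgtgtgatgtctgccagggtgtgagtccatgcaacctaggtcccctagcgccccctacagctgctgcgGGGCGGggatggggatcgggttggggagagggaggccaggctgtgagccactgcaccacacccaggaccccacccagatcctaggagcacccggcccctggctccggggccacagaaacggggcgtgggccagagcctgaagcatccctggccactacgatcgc
Itga3 (chr11:95076665-95076964, minus strand): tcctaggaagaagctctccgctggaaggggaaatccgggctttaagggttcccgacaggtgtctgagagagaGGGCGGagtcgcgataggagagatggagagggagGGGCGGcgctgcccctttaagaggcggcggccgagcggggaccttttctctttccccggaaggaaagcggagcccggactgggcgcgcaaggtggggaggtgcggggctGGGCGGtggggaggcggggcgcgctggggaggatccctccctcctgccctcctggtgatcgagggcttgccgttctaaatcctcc
Lama5 (chr2:180225810-180226109, minus strand): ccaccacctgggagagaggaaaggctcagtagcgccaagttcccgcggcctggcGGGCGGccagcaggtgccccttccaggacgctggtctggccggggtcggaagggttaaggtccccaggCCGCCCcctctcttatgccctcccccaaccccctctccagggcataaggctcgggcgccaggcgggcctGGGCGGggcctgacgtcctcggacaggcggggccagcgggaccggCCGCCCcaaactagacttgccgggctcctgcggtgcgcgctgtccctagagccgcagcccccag

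The 4 promoters held 2 (Itga5), 1 (Itga4), 3 (Itga3) and 4 (Lama5) GC boxes, a motif found in 35.7% of the 32851 promoters in the table. The genes that were high together, Itga3 and Lama5, had 24 CG dinucleotides each, Itga5 had 13 and Itga4 10, against a median of 7 over all promoters. None of the 4 windows held TATAAA (13.6% of all promoters), TGANTCA, the AP-1 site (7.81%), CACGTG, an E-box (7.15%), or GGAATG, the TEAD site (14.7%) on either strand. Such matches describe the letters of these windows only, and 23 of the 37 members had an entry in the table.

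Wide differences between libraries were more frequent among members than among all genes, within the control genotype included; this is a description with no test. Among the 26 members with a mean of at least 100 normalized reads, 12 had a highest library at least 5-fold above the lowest, against 13.5% of the 12859 genes with such a mean. For 21 of the 26 the p53 ko libraries differed at least 2-fold among themselves (22.9% of all such genes), and for 5 p53 ko replicates 2 and 3 did (3.20%). For 12 of the 26 all 4 libraries with altered Mdm2 lay within the range of the 3 p53 ko libraries (14.7%). Of the 34 tested members 16 had their lowest value in p53 ko replicate 1 (26.5% of all tested genes), and 11 had their highest in p53 ko replicate 3 (9.95%).

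The first comparison, p53Mdm2 ko against p53 ko, concerns the loss of Mdm2 in cells without p53. No member passed the test. The test was limma on the deposited values with Benjamini-Hochberg adjustment over 16900 genes, of which 0 (0%) had an adjusted p under 0.05. With voom on the recovered reads 0 members passed either. With limma 2 of 34 members had an unadjusted p under 0.05, against 3% of all genes. Differences below are on the deposited log2-like scale. Lama3 had 8.97 ± 1.75 normalized reads in p53Mdm2 ko (SD, n = 2) and 137 ± 81.5 in p53 ko (n = 3), a difference of -2.47 (SE 0.503, limma unadjusted p = 0.0022). Itgb7 had 150.3 ± 48.6 against 37.3 ± 18.3, a difference of 1.64 (SE 0.495, limma unadjusted p = 0.0145). The adjusted p of each was 1.

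Among the next in order of p in this comparison were Lama4 (difference -1.92), Itgad (-1.81) and Lamb2 (-0.50). The Lama4 value rested on p53Mdm2 ko replicate 2 and was -0.13 without it, -3.72 without p53Mdm2 ko replicate 1 and -1.27 without p53 ko replicate 3. The Itgad and Lamb2 values rested on p53 ko replicate 1 and were -0.55 and -0.16 without it. For 2 members every p53Mdm2 ko library was above every p53 ko library (Itgb7 among them), against 8.99% of all tested genes. For 4 every one was below (Lama3, Itgad, Lamb2, Itgae), against 9.2%. Itgad reached the mean of 10 only through p53 ko replicate 1. Its separation came down to 2 reads in p53 ko replicate 3 against 0 and 1 in p53Mdm2 ko replicates 1 and 2. That lies within the 3 reads that a 0 allows. Integrins were higher in 10 of 23 tested members (median difference -0.15) and laminins in 5 of 11 (median -0.08), where all genes had a median of -0.01 and 48.2% of them were higher and 51.8% lower. Without p53 ko replicate 1, 5 of 34 members had an unadjusted p under 0.05 in limma (4.64% of all genes): Itgb7 with a higher value and Itga7, Itga11, Itgb3 and Lama3 with lower values. The limma adjusted p of Lama3 was then 0.777 and that of the other 4 was 0.999. Without Mdm2 C462A ki replicate 2 as well, which enters this comparison only through the shared estimate of the spread, the count was 7 (6.46% of all genes). The 2 added members were Itga3, with a difference of 1.39 (SE 0.203, limma adjusted p = 0.30), and Itga4, with -1.54 (SE 0.184, limma adjusted p = 0.260). With all libraries their differences were 0.68 and -0.15.

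The second comparison, Mdm2 C462A ki against p53 ko, concerns the RING substitution in the same background and shares its 3 control libraries with the first. Again no member passed the adjusted test in limma (0% of all genes did), and 3 of 34 had an unadjusted p under 0.05, against 10.4% of all genes. Itga5 had 8678 ± 726 normalized reads in Mdm2 C462A ki (SD, n = 2) and 19401 ± 2477 in p53 ko (n = 3), a difference of -1.15 (SE 0.250, limma unadjusted p = 0.00303, adjusted p = 0.437). Its difference in the first comparison was -0.17, with an interval from -0.77 to 0.43. Lama3 had 16.0 ± 1.45 against 137 ± 81.5, a difference of -2.07 (SE 0.503, limma adjusted p = 0.437), beside -2.47 in the first. Itgae had 9.78 ± 8.85 against 27.3 ± 5.59, a difference of -0.87.

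Itgb7 followed with a difference of 1.16, beside 1.64 in the first comparison, then Itgb2 (1.17) and Itga7 (-1.23). Leaving out Mdm2 C462A ki replicate 1 or 2 moved Itgb7 to 0.54 or 1.78, and p53 ko replicate 1 or 3 moved Itgb2 to 0.77 or 1.78. Itga7 was -1.93 without p53 ko replicate 1 and -0.75 without Mdm2 C462A ki replicate 2, and Itgae was -0.44 without the latter. For 1 member (Itgb7) every Mdm2 C462A ki library was above every p53 ko library (14.1% of all tested genes), and for 3 (Itga5, Lama3, Itgae) every one was below (14.4%). Integrin alpha chains had lower values in 13 of 16 tested members, with a median difference of -0.53, beta chains in 5 of 7 (median -0.06) and laminins in 6 of 11 (median -0.07), where all genes had a median of 0.01, with 51.2% higher and 48.8% lower. On log2 of reads scaled by the library total with a pseudocount of 1, 21 of 34 members had lower values. On log2 of the authors' scaled reads with a pseudocount of 1 or 10 it was 24, the same count as on the deposited values.

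**Figure D3:**
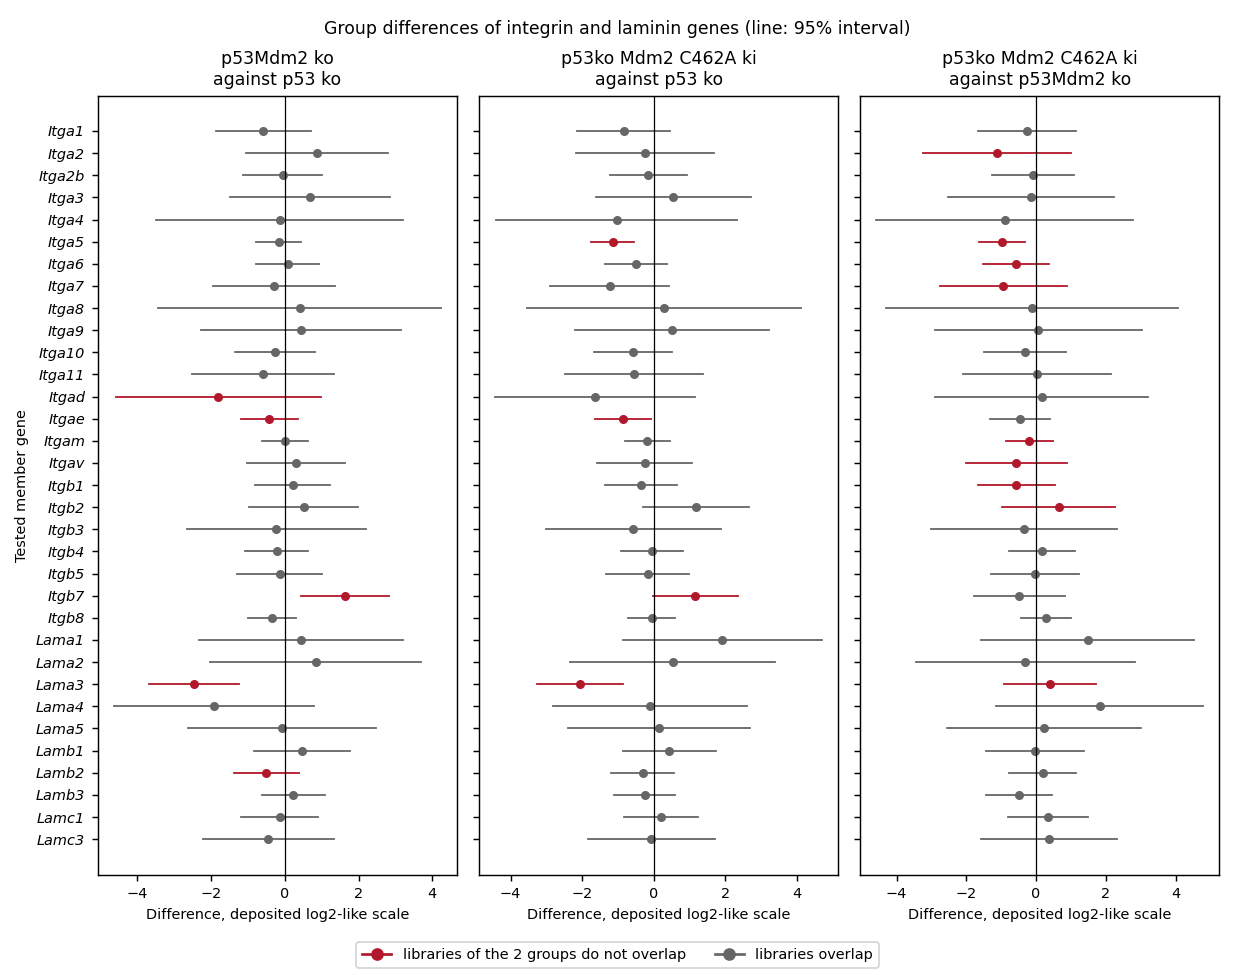
Differences between groups (points, deposited log2-like scale on the horizontal axis) with 95% intervals from limma for 33 of the 34 tested members, 1 panel per comparison; red marks genes whose libraries do not overlap between the 2 groups. Intervals of Lama3 and Itgb7 lie off 0 in the first panel and those of Itga5, Lama3 and Itgae in the second, and no adjusted p was under 0.05.

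The count in this comparison turned on p53 ko replicate 1. Without it 11 of 34 members had an unadjusted p under 0.05 in limma, all with lower values in Mdm2 C462A ki, against 6.61% of all genes with lower values. They were Itga2, Itga4, Itga5, Itga6, Itga7, Itga11, Itgae, Itgav, Itgb1, Itgb3 and Lama3, thus 10 integrins and 1 laminin. Itga7 had a difference of -1.93 (SE 0.355, limma adjusted p = 0.305) and Itga4 of -2.43 (SE 0.752, adjusted p = 0.384). Itgb1, the shared beta chain, had -0.73 (SE 0.292, limma adjusted p = 0.421), against -0.36 with all libraries. In limma 0.305 was the smallest adjusted p of the 11. The library left out was the lowest of all 7 for 16 of the 34 tested members (26.5% of all tested genes). Leaving it out raises the p53 ko mean of those members, so the count and its direction are not independent of that choice. Without p53 ko replicate 2 instead, the count was 3 (1241 of 16900 genes). Without p53 ko replicate 3 instead, it was 4 (1433 of 16900 genes).

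Without both p53 ko replicate 1 and Mdm2 C462A ki replicate 2, which leaves 1 library with the substitution, that count was 8 (7 lower and 1 higher, against 3.87% and 3.53% of all genes). The 7 were Itga1, Itga4, Itga5, Itga6, Itga7, Lama3 and Lama5, and the member with a higher value was Itgb7. Lama5 then had a difference of -1.47 (SE 0.237, limma adjusted p = 0.406); with all libraries it was 0.16, without Mdm2 C462A ki replicate 2 alone -1.81 and without replicate 1 alone 2.12. Without Mdm2 C462A ki replicate 2 alone, 5 of 34 members had an unadjusted p under 0.05 (3.78% of all genes). Itga4, Itga5, Itga6, Itga7 and Lama3 were in the set without p53 ko replicate 1 alone. They were also in the set without p53 ko replicate 1 and Mdm2 C462A ki replicate 2 together.

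**Figure D4:**
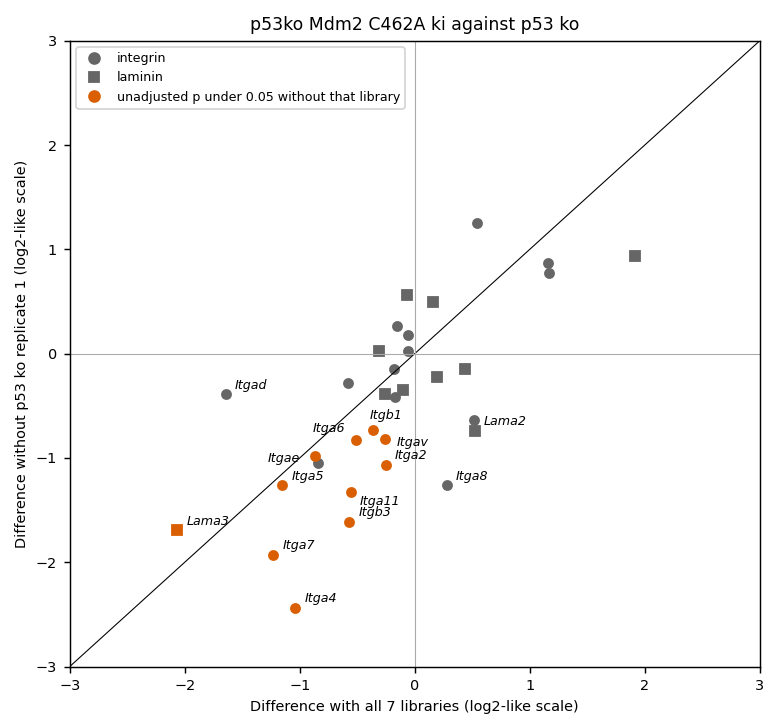
Difference of Mdm2 C462A ki from p53 ko of 33 members with all 7 libraries (horizontal axis) and without p53 ko replicate 1 (vertical axis), both on the deposited log2-like scale; circles are integrins, squares laminins, the line marks equal values, and orange marks an unadjusted p under 0.05 without that library. The orange points, 10 integrins and 1 laminin, lie between -0.73 and -2.43 on the vertical axis, and 10 of the 11 lie below the line.

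The third comparison sets Mdm2 C462A ki against p53Mdm2 ko, with the smallest groups (2 against 2). No member passed the adjusted test in limma (0% of all genes did), and 1 of 34, Itga5, had an unadjusted p under 0.05, against 2.98% of all genes. Without p53 ko replicate 1, which enters here only through the shared estimate of the spread, the count was 4 (5.48% of all genes), with Itga2, Itga5 and Itga7 among them. Without both outlying libraries it was also 4 (3.39%), all lower in Mdm2 C462A ki, with Itga3 (-1.36), Itga5 (-0.90) and Lama5 (-1.73) among them. With all libraries Itga3 differed by -0.14 and Lama5 by 0.23. Itga5 had 8678 ± 726 normalized reads in Mdm2 C462A ki (SD, n = 2) and 17589.6 ± 5612 in p53Mdm2 ko (n = 2), a difference of -0.98 (SE 0.274, limma unadjusted p = 0.0102, adjusted p = 1). It was -0.65 without p53Mdm2 ko replicate 2. Among the next were Lama4 (1.82), Itga6 (-0.58), Itga2 (-1.12) and Itgae (-0.45). Lama4 was 0.03 without p53Mdm2 ko replicate 2 and 3.62 without replicate 1, and Itgae was -0.02 without Mdm2 C462A ki replicate 2 and -0.89 without replicate 1. Itga6 was -0.32 without p53Mdm2 ko replicate 2, and Itga2 was -0.72 without Mdm2 C462A ki replicate 2.

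For 8 members every Mdm2 C462A ki library was below every p53Mdm2 ko library, against 17.1% of all genes; the integrins among them were Itga2, Itga5, Itga6, Itga7, Itgam, Itgav and Itgb1. For 2, Itgb2 and Lama3, every one was above (15.8%). Integrin alpha chains had lower values in 13 of 16 tested members (median -0.28), and laminin alpha chains had higher values in 4 of 5 (median 0.40). All genes had a median of 0.01, with 51.7% higher and 48.3% lower. The median of 0.40 was the value of Lama3, which had 11 and 6 reads in p53Mdm2 ko and 17 in each Mdm2 C462A ki library. Lama4 was 0.03 without p53Mdm2 ko replicate 2, and Lama5 was -1.73 without both outlying libraries. Lama1 had 1237 normalized reads in Mdm2 C462A ki replicate 2 and 266 in replicate 1.

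Partner genes of both families came from lists of known function. Of the integrin activators and adaptors (talins, kindlins, focal adhesion proteins), 24 were tested, and in limma 0 passed the adjusted test in any comparison. In Mdm2 C462A ki, 19 of 24 had lower values than in p53 ko (median -0.40), and 18 of 24 lower values than in p53Mdm2 ko (median -0.40). In the latter, for 15 every library was below (17.1% of all tested genes) and for 1, Sharpin, every library was above (15.8%). In p53Mdm2 ko, 14 of 24 had lower values than in p53 ko (median -0.07). Tln2, a talin that links integrin tails to actin, had 6399, 4562 and 5235 normalized reads in p53 ko, 2710.2 and 2869 in p53Mdm2 ko, and 2422 and 1633 in Mdm2 C462A ki. All 4 libraries with altered Mdm2 lay below the p53 ko libraries, and its difference in Mdm2 C462A ki was -1.42 (SE 0.233, limma adjusted p = 0.437). Tgfb1i1, the focal adhesion protein Hic-5, had a difference of -0.70 there.

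Other ligands and laminin partners were mixed. Of 18 tested integrin ligands besides laminins, 12 had lower values in Mdm2 C462A ki than in p53 ko (median -0.63) and 10 in p53Mdm2 ko (median -0.19). Ctgf, a matricellular ligand, had 30194, 48437 and 33082 normalized reads in p53 ko, 25846 and 86238 in p53Mdm2 ko, and 7206 and 24330.0 in Mdm2 C462A ki. Thbs1, thrombospondin 1, differed by -2.69 between Mdm2 C462A ki and p53 ko. Of 14 basement membrane partners of laminin, 8 had lower values in Mdm2 C462A ki (median -0.45) and 9 in p53Mdm2 ko (median -0.09) than in p53 ko.

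Col18a1, a basement membrane collagen gene, had 5223, 838 and 1518 normalized reads in p53 ko, 336 and 283 in p53Mdm2 ko, and 453 and 615 in Mdm2 C462A ki. It lay below every p53 ko library in all 4 others, with a difference of -2.54 in p53Mdm2 ko. Nid2, a nidogen that joins laminin to collagen IV, differed by -1.03 between Mdm2 C462A ki and p53 ko. Of 10 other laminin receptors, 7 had lower values than p53 ko in both comparisons (median -0.06 in Mdm2 C462A ki and -0.17 in p53Mdm2 ko), among them the syndecan gene Sdc1 (-1.12 in Mdm2 C462A ki, -0.67 without both outlying libraries), while Lgals3, the lectin galectin 3, had a difference of 1.45. None of these passed the adjusted test in limma. Of 9 tested relatives outside the symbol rule, Itgb3bp (-0.46 in Mdm2 C462A ki) and Itfg2 (0.32) had the lowest p, and 5 of 9 had higher values in each comparison. Itgb3bp was -0.22 without p53 ko replicate 3.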

How the data were processed

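The authors deposited 1 log2-like value per gene and sample after a variance-stabilizing transformation (scale inferred from the values: a gene with no reads has 3.36 in all 7 columns). Per the labels' protocols, TruSeq libraries from 1000 ng of total RNA were read as single 50 bp reads. The submitters' processing notes list CASAVA 1.8.2, Bowtie2 2.1.0, DESeq 1.14.0 and mm9, with no role for each. How reads were counted, and whether by strand, is not given in the sources used here. Overlapping genes may therefore share reads.

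Inverting the transformation gave normalized reads, and dividing by 1 step per sample gave whole reads (100% of values above 0 within 0.05). Deposited values were fitted with limma 3.58.1 (R 4.3.3): group means, all 7 samples, mean-variance trend, genes with a mean of at least 10 normalized reads, two-sided p-values, Benjamini-Hochberg adjustment over all genes, threshold 0.05. The fit was tested on simulated data. Intervals are 95%. Count models were not run: the main fit used the deposited values, and the recovered reads were fitted only in the alternatives, voom among them. Gene length is the exon union of protein-coding transcripts.

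Members and lists were chosen with earlier results of these data known. Members with a mean of at least 100 are given by sample, and differences for the 6 members with the lowest p per comparison and the 2 lowest per partner list; a few more were added after their values were seen. Deviations of same-numbered replicates correlated only weakly over all tested genes, with both signs, and no block was used in the main fit. Alternatives covered the scale, filter, scaling, variance model, sample weights, block, the groups fitted and left-out libraries. Values of 1 member are not reported here; counts, shares and medians include it.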

Additional observations from a re-analysis of the deposited data

How the results depend on the processing

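No member passed the adjusted threshold under any of the 18 alternatives in any comparison, so the count of called members was 0 throughout; the lowest adjusted p of any named gene was 0.138. The median difference of the 34 members was -0.11 for p53Mdm2 ko against p53 ko (-0.25 to 0.14 over the alternatives), -0.18 for Mdm2 C462A ki against p53 ko (-0.39 to -0.08) and -0.13 for Mdm2 C462A ki against p53Mdm2 ko (-0.25 to -0.02), all moves smaller than the pooled SD of 0.34 between libraries of a group. Of 36 named differences 7 changed sign under some alternative; the cause was not tested. When single libraries were left out, these ran as follows. In p53Mdm2 ko against p53 ko, Itga4 ran from -1.54 to 0.59 and Itga5 from -0.50 to 0.16. In Mdm2 C462A ki against p53 ko, Itga4 ran from -2.43 to 0.21, Lama5 from -1.81 to 2.12 and Itfg2 from -0.052 to 0.70. In Mdm2 C462A ki against p53Mdm2 ko, Itga3 ran from -1.36 to 1.09 and Lama5 from -1.73 to 2.20. Without both p53 ko replicate 1 and Mdm2 C462A ki replicate 2, Lama5 was -1.47 against p53 ko and -1.73 against p53Mdm2 ko. The count of members with an unadjusted p under 0.05 ran from 2 to 5, 2 to 11 and 0 to 4 in the 3 comparisons when single libraries were left out. With a replicate block the medians were 0.14, -0.08 and -0.13 in the order above. Itga4 was then 0.59 in p53Mdm2 ko and Lama5 -0.11 in Mdm2 C462A ki, each against p53 ko, and no call changed. Only p53 ko has a replicate 3, so the block fits that library on its own. The medians were therefore the same as without p53 ko replicate 3. Deviations of same-numbered samples correlated between -0.16 and 0.20 over all tested genes, and between -0.57 and 0.19 over the members. In a group of 2 the deviations from the mean are equal and opposite. Each correlation thus has a mirror image, and these values cannot decide whether replicate numbers pair the samples. With 1 library left in a group, that library is assumed to vary like the others. Genes with few reads, such as Itgad, Itgae and Lama3, depend most on the scale: with voom on the recovered reads Itgad was -4.02 and Lama3 -3.62 in p53Mdm2 ko against p53 ko, and Itgae -1.78 in Mdm2 C462A ki against p53 ko.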
